A study of Setaria viridis with 24 samples.

Results

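Of 20865 genes measured in seedlings of Setaria viridis, 19 were at least 3 times as high in the crown as in the stem at both ages and with or without drought, and stayed within set limits for drought in both regions and for age in watered plants. Setaria viridis is a wild relative of foxtail millet and serves as a laboratory model of C4 grasses. The members were chosen from expression values, given as FPKM (fragments scaled to the length of the transcript and to the sequencing yield of the library), after 1 was added to each value. The 1 added draws drought and age ratios of stem values near or under 1 FPKM towards 1, so the stem limits ask little of genes that low. The crown/stem ratio had to be at least 3 in each of the 4 pairs of matched groups. The drought/watered ratio had to lie between 0.7 and 1.4 in each of 4 comparisons, and the day 9/day 6 ratio between 0.6 and 1.7 in watered crowns and in watered stems. The highest of the 8 values had to reach 5 FPKM.

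In grasses most roots of the grown plant are shoot-borne: they arise from nodes in the crown, the compact base of the shoot, and not from the seedling root. The crown therefore holds root-forming tissue beside shoot tissue, whereas the stem above it carries vascular and leaf-bearing tissue. The title of the study places its question in the suppression of shoot-borne roots during drought. Genes higher in the crown than in the stem with and without drought are described here beside that question. Any part they have in it was not tested.

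Plants grew in a mix of peat and sand, and the labels name no genotype or line and no water content. Crowns (the lower region) came from drought plants at day 9 and day 6 after sowing and from watered plants at day 9 and day 6, and stems (the upper region) came from the same 4 settings. Each of these 8 groups had 3 libraries, 1 per biological repeat and each made from 20 plants, so 24 libraries in all. A library thus averaged over pooled plants and over every cell type of the region, and fewer cells of a type cannot be told apart from less RNA per cell.

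The deposited tables give 1 FPKM value per gene and group, set by the authors from 3 libraries. Among the 20865 genes listed, the lowest value of a gene's highest group was 1.97 FPKM. Shares of all genes therefore leave out genes that were low in every group. Library values were not analysed here, so no SD can be given and the depth is unknown. The authors' tests are the measure of spread between libraries that remains: a gene is called when its q-value in the authors' deposited table is under 0.05. The files hold an annotation in 0 of 531416 rows, and 0 of the 19 identifiers matched the reference table of 34587 genes. The genes are therefore named by identifier and by position in the files' own gene models, whose genome build is not given in the sources used here. For the same reason the crown and stem labels could not be checked against marker genes, no role is given to any member, and no sequence is shown.

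The conditions of the rule removed most crown-enriched genes. The minimum of 5 FPKM left 17043 genes, and 178 of these, or 0.853% of all genes, had a crown/stem ratio of at least 3 in all 4 pairs. The drought window kept 37 of the 178 and the age window kept 19 of the 37, so the stable genes were 10.7% of the crown-enriched genes. Of the 159 others, 64 failed the drought window alone, 18 the age window alone and 77 both. In the crown, failures were more often rises than falls. In 81 of the 178 the drought/watered ratio was at or above 1.4 in the day 9 crown, against 13 at or below 0.7. In the day 6 crown the counts were closer, at 36 against 18. In the watered crown the day 9/day 6 ratio was at or above 1.7 in 70, against 4 at or below 0.6. The stem was mixed: in the day 9 stem 61 reached the upper drought limit against 6 at the lower, in the day 6 stem 10 against 14, and for age in the watered stem 21 against 22. The matching counts over all genes are not given here, so these rises are not read as particular to crown-enriched genes.

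**Figure D1:**
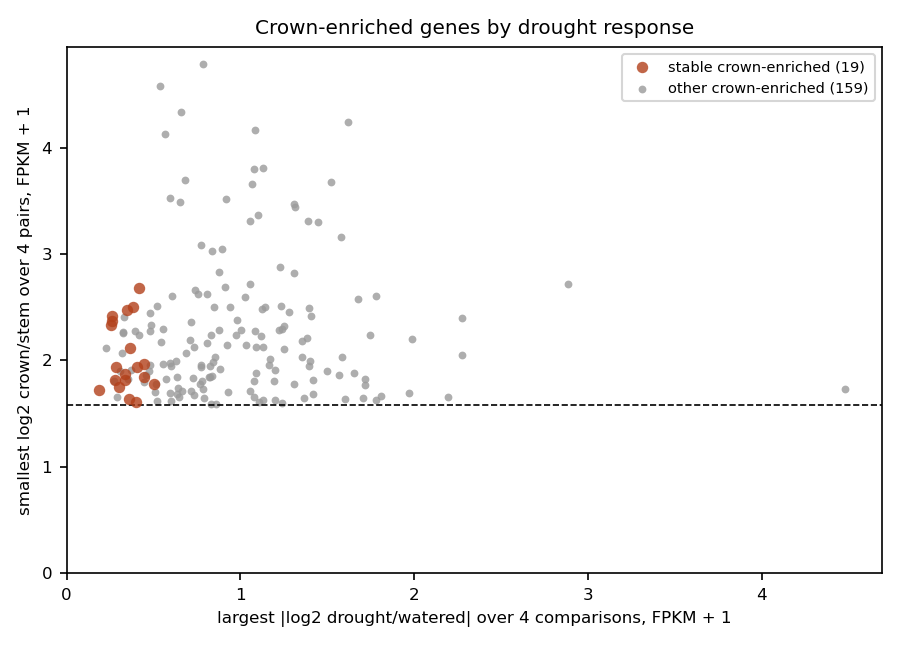
The 178 crown-enriched genes, each a point, by the largest absolute log2 drought/watered ratio over the 4 drought comparisons (horizontal) and the smallest log2 crown/stem ratio over the 4 pairs (vertical), both on FPKM + 1. The 19 stable genes (red) lie at the left by construction, with a highest smallest ratio of 2.68, while the other 159 (grey) reach 4.79 on the vertical axis. The dashed line is the limit of 3, which is 1.58 on the log2 scale.

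The 19 genes spanned 3.02 to 51.2 FPKM over the crowns and 0 to 11.6 FPKM over the stems. Their median was 10.5 FPKM in drought day 9 crowns, 7.55 in drought day 6 crowns, 9.01 in watered day 9 crowns and 8.19 in watered day 6 crowns. In stems it was 0.913 FPKM in drought plants at day 9, 0.631 in drought plants at day 6, 0.729 in watered plants at day 9 and 0.731 in watered plants at day 6. Over all genes the group medians lay between 9.85 and 10.6 FPKM. The members' crown medians were thus near the median gene and their stem medians were more than 10 times below it, while single members ranged widely, and the stems of Sevir.4G277900 at day 9 were above the median gene. In all 19 the lowest of the 4 crown values was above the highest of the 4 stem values, which held for 11.6% of all genes. The rule all but fixes that separation, so nothing is read from it. The median of the highest group value was 10.8 FPKM for the 19, 26.5 FPKM for the 178 crown-enriched genes and 15.2 FPKM for all genes.

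**Figure D2:**
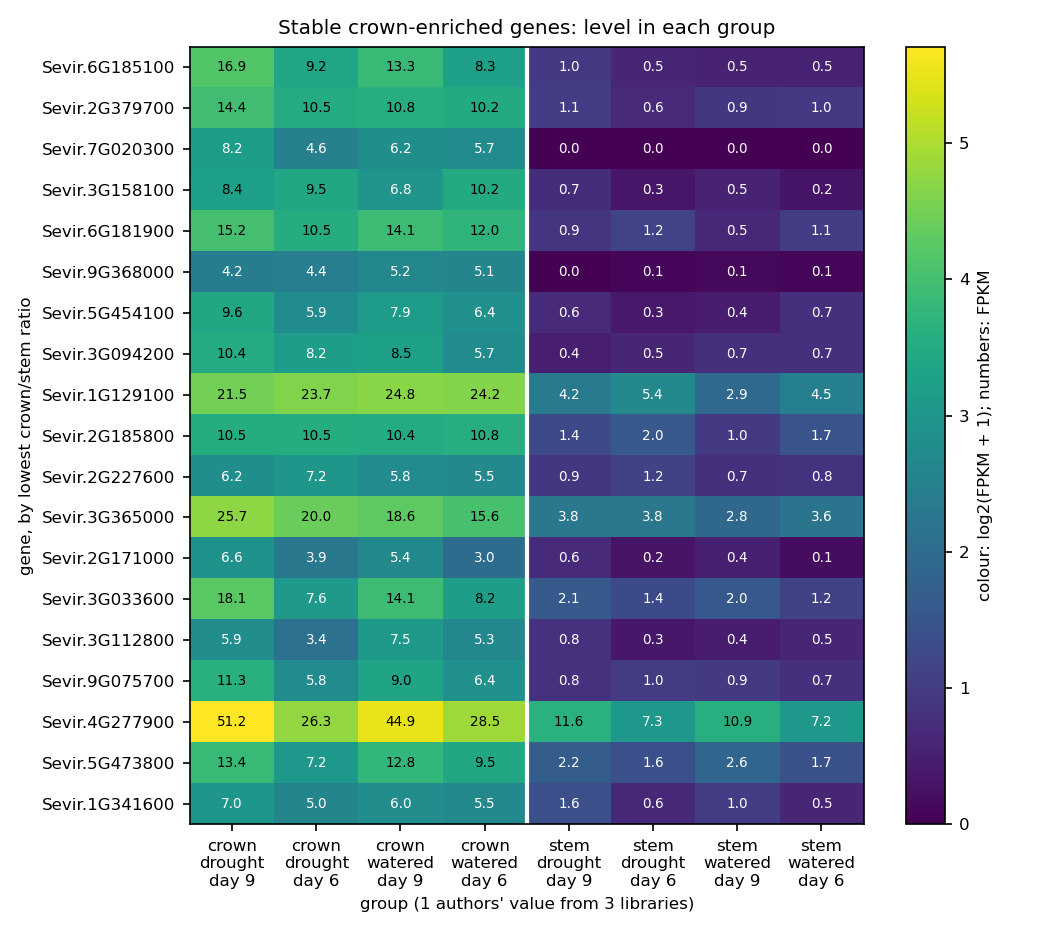
FPKM of the 19 genes (rows, ordered by their lowest crown/stem ratio) in the 8 groups (columns, crowns left of the white line and stems right of it). Colour gives log2(FPKM + 1), and each printed number is the authors' FPKM value of that group. Crown values run from 3.02 to 51.2 FPKM and stem values from 0 to 11.6 FPKM.

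In 8 of the 19 the stem stayed under 1 FPKM in all 4 groups, against 37.1% of the 178 crown-enriched genes and 4.70% of all genes, and the crown/stem limit favours such genes. Sevir.7G020300 (chromosome 7, 7161570 to 7162238) was listed at 0 in all 4 stem groups. In drought crowns it stood at 8.16 FPKM at day 9 and 4.56 FPKM at day 6, and in watered crowns at 6.19 FPKM at day 9 and 5.69 FPKM at day 6. No fold change can be given against a value listed at 0. Sevir.9G368000 (chromosome 9, 40416121 to 40418326) was the most even of the low-stem genes. It had 4.23 and 4.40 FPKM in drought crowns at day 9 and day 6, and 5.24 and 5.05 FPKM in watered crowns at day 9 and day 6. Its stem values were 0 and 0.0745 FPKM in drought plants at day 9 and day 6, and 0.0882 and 0.0515 FPKM in watered plants at day 9 and day 6. Its 4 crown/stem ratios on FPKM + 1 spanned 5.02 to 5.76, and the 1 added to each value is above every stem value of this gene.

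Sevir.6G185100 (chromosome 6, 29631529 to 29633151) had the highest smallest ratio of the 19, at 6.42. Its crown values were 16.9 and 9.25 FPKM in drought plants at day 9 and day 6, and 13.3 and 8.31 FPKM in watered plants at day 9 and day 6. The stem values were 0.959 and 0.529 FPKM in drought plants at day 9 and day 6, and 0.467 and 0.451 FPKM in watered plants at day 9 and day 6. The day 9 crowns were the higher ones in both water regimes, and no stem value came near a crown value. Sevir.3G158100 (chromosome 3, 11181187 to 11184456) had the opposite order in time. It stood at 8.37 and 9.50 FPKM in drought crowns at day 9 and day 6, and at 6.83 and 10.2 FPKM in watered crowns at day 9 and day 6. Its stems held 0.668 and 0.269 FPKM under drought at day 9 and day 6, and 0.469 and 0.244 FPKM in watered plants at day 9 and day 6. Its crown/stem ratio was therefore largest in watered plants at day 6, at 9.04, and smallest in watered plants at day 9, at 5.33. It shares its position entry in the files with Sevir.3G158200, whose crowns held 1.73 to 2.95 FPKM and whose stems held 0.161 to 0.427 FPKM, and how reads were split between the overlapping models is not known.

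The other low-stem genes were Sevir.5G454100, Sevir.3G094200, Sevir.2G171000 and Sevir.3G112800. Sevir.5G454100 (chromosome 5, 44750511 to 44753293) ranged from 5.87 to 9.58 FPKM over the crowns and from 0.317 to 0.696 FPKM over the stems. Sevir.3G094200 (chromosome 3, 6267794 to 6271134) ranged from 5.75 to 10.4 FPKM over the crowns and from 0.394 to 0.724 FPKM over the stems. Sevir.2G171000 (chromosome 2, 23620053 to 23624295) and Sevir.3G112800 (chromosome 3, 7665615 to 7669033) were the faintest in the crown, with lowest crown values of 3.02 and 3.41 FPKM. In both, the highest crown value was over 2 times the lowest, at 2.20 and 2.21 times, so that stability under the rule left a visible range.

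Another 3 members reached 20 FPKM in a crown and were also measurable in every stem group. Sevir.4G277900 (chromosome 4, 37759871 to 37765008) was the most abundant, at 51.2 and 26.3 FPKM in drought crowns at day 9 and day 6 and at 44.9 and 28.5 FPKM in watered crowns at day 9 and day 6. Its stems held 11.6 and 7.25 FPKM under drought at day 9 and day 6, and 10.9 and 7.22 FPKM in watered plants at day 9 and day 6. Day 9 was above day 6 in both regions and both water regimes, and the drought and watered values of a region and day differed less than the days did. Sevir.1G129100 (chromosome 1, 11773913 to 11782459), the longest gene model of the 19 at 8547 bases, barely moved in the crown. It stood at 21.5 and 23.7 FPKM in drought crowns at day 9 and day 6, and at 24.8 and 24.2 FPKM in watered crowns at day 9 and day 6. In stems it had 4.16 and 5.42 FPKM under drought at day 9 and day 6, and 2.89 and 4.50 FPKM in watered plants at day 9 and day 6, lower at day 9 in both water regimes. Sevir.3G365000 (chromosome 3, 43807241 to 43812362) had 25.7 and 20.0 FPKM in drought crowns at day 9 and day 6, and 18.6 and 15.6 FPKM in watered crowns at day 9 and day 6. Its stems lay between 2.83 and 3.84 FPKM.

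The remaining 8 members reached 1 FPKM in at least 1 stem group and stayed under 20 FPKM in the crown. Sevir.2G185800 (chromosome 2, 25829949 to 25832146) was the steadiest in the crown of all 19. Its crown values were 10.5 FPKM in drought plants at both ages, 10.4 FPKM in watered plants at day 9 and 10.8 FPKM in watered plants at day 6, so that the highest was 1.04 times the lowest. Its stem values were 1.39 and 2.02 FPKM under drought at day 9 and day 6, and 0.962 and 1.74 FPKM in watered plants at day 9 and day 6, and the changes in its crown/stem ratio came from the stem. Sevir.3G033600 (chromosome 3, 2135022 to 2137180) was the least steady, with a highest crown value 2.39 times the lowest. It had 18.1 and 7.55 FPKM in drought crowns at day 9 and day 6, and 14.1 and 8.19 FPKM in watered crowns at day 9 and day 6. Its stems held 2.08 and 1.43 FPKM under drought at day 9 and day 6, and 1.97 and 1.19 FPKM in watered plants at day 9 and day 6.

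The other 6 of these genes had crown values from 5.03 to 15.2 FPKM and stem values from 0.539 to 2.61 FPKM. They were Sevir.2G379700 (chromosome 2, 43062130 to 43063630), Sevir.6G181900 (chromosome 6, 29271371 to 29272945), Sevir.2G227600 (chromosome 2, 31049734 to 31052127), Sevir.9G075700 (chromosome 9, 4559062 to 4560358), Sevir.5G473800 (chromosome 5, 45876869 to 45878443) and Sevir.1G341600 (chromosome 1, 38433695 to 38437764). Among them Sevir.2G379700 had its highest crown value, 14.4 FPKM, in drought plants at day 9, against 10.2 to 10.8 FPKM in the other 3 crown groups. Sevir.2G227600 held nearly 1 crown/stem ratio throughout, from 3.65 to 3.91 on FPKM + 1.

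On FPKM + 1, the size of the crown/stem difference varied with age more than with water supply. The median log2 ratio on FPKM + 1 was 2.46 under drought at day 9, 1.99 under drought at day 6, 2.48 in watered plants at day 9 and 2.09 in watered plants at day 6. Over all genes these medians lay between 0.03 and 0.05. The ratio was larger at day 9 than at day 6 in 16 of the 19 under drought and in 15 of the 19 in watered plants, and in 14 of the 19 in both. The same comparison held for 58.1% of all genes under drought and 58.2% in watered plants, and for 68.5% and 79.2% of the 178 crown-enriched genes. In both regimes at once it held for 47.3% of all genes and 60.1% of the crown-enriched genes. Between water regimes the ratio was larger under drought in 11 of the 19 at day 9 and in 7 of the 19 at day 6. The shares were 53.9% and 61.8% of the crown-enriched genes, and 49.8% and 48.4% of all genes. The drought day 9 pair gave the largest of the 4 ratios in 10 members, and the drought day 6 pair gave the smallest in 10. These ratios chose the members and are a description, and nothing is read from age outweighing water supply. Without the 1 added that order did not hold. In the authors' deposited tables the members' median log2 fold change was 3.12 under drought at day 9 and 3.10 at day 6. In watered plants it was 3.51 at day 9 and 3.16 at day 6. Fold changes against a stem listed at 0 are left out of these medians.

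**Figure D3:**
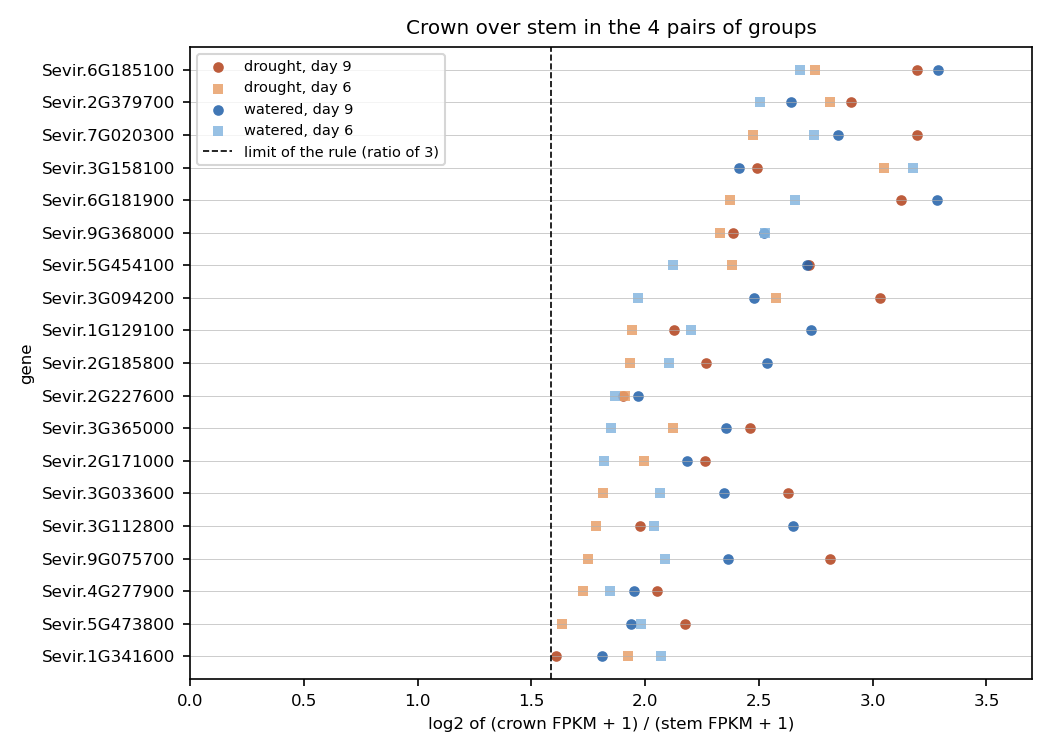
Log2 ratio of crown to stem on FPKM + 1 for each of the 19 genes (rows) in the 4 pairs of groups, with day 9 as circles, day 6 as squares, drought in red tones and watered in blue. All 76 points lie right of the dashed limit, and the day 9 circles lie right of the day 6 squares of the same colour in 14 of the 19 genes for both water regimes.

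The authors' test called most but not all of these differences. In the authors' deposited tables, 19 of the 19 were called higher in the crown under drought at day 9, beside 11.6% of all genes listed, and 15 of the 19 under drought at day 6, beside 6.44%. Without drought the authors' deposited tables called 18 of the 19 at day 9, beside 12.0%, and 16 of the 19 at day 6, beside 8.30%. The contrasts are those of the rule, so these counts support nothing further. The smallest q-value the tables hold is 0.00091, and between 10 and 13 of the 19 shared it in each pair.

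The 4 members without a call in every pair were all low-stem genes. In the authors' deposited tables, Sevir.9G368000 had log2 fold changes of crown over stem of 5.88 under drought at day 6 (q = 0.556), 5.89 in watered plants at day 9 (q = 0.497) and 6.62 in watered plants at day 6 (q = 0.505). It was called in the drought day 9 pair alone, at q = 0.00091, where the stem was listed at 0. Sevir.3G158100 had log2 fold changes of 5.14 under drought at day 6 (q = 0.539) and 5.39 in watered plants at day 6 (q = 0.376) in the authors' deposited tables, and was called in both day 9 pairs. Sevir.2G171000 was likewise called in both day 9 pairs and in neither day 6 pair, where its stem held 0.224 FPKM under drought and 0.139 FPKM with water. Sevir.3G112800 missed the threshold in the drought day 6 pair, with a log2 fold change of 3.60 and q = 0.0667 in the authors' deposited table.

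Crowns and stems were also set against each other across ages and water regimes in the deposited tables, which makes 16 crown-stem tables in all. In the tables that the authors deposited, 15 of the 19 were called higher in the crown in all 16, beside 0.816% of the 17285 genes listed in each of them. Sevir.3G112800 was called in 10 of the 16, Sevir.3G158100 and Sevir.2G171000 in 8 each, and Sevir.9G368000 in 4. The calls of Sevir.3G158100 and Sevir.2G171000 were the 8 tables with a day 9 stem, whichever crown stood against it, and those of Sevir.9G368000 were the 4 tables with the drought day 9 stem. Which stem group was used, and not which crown, thus separated called from uncalled tables in these 3 genes. Against the drought day 6 stem, at 0.0745 FPKM, the authors' Cuffdiff p of Sevir.9G368000 was 0.253 with every crown group. A missing call at such low stem values is therefore not read as a difference within the spread between libraries. Sevir.7G020300, at 0 in all 4 stem groups, had the smallest q-value of the tables in all 16, as did Sevir.9G368000 in its 4 called tables. A call against a stem listed at 0 is therefore not read as a measure of that spread either. The tables share group values and are not independent of each other or of the rule.

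Drought left the members within their window by construction. In the crown the median log2 ratio of drought over watered on FPKM + 1 was 0.25 at day 9 and -0.10 at day 6, against -0.03 over all genes at day 6 and a median within 0.01 of 0 at day 9. At day 9, 16 of the 19 had a drought/watered ratio above 1 in the crown, against 79.8% of the 178 crown-enriched genes and 50.01% of all genes. At day 6, 6 of the 19 had one, against 56.7% of the crown-enriched genes and 45.8% of all genes. The crown-enriched genes had median log2 ratios of 0.43 at day 9 and 0.10 at day 6. The stem medians were 0.17 at day 9 and 0.05 at day 6, again on the log2 scale. For low stem values these ratios rest on the 1 added. In the day 9 stem the drought/watered ratio was 2.05 without it and 1.33 with it for Sevir.6G185100, and 2.10 and 1.29 for Sevir.3G112800. For Sevir.4G277900, with its higher stem values, it was 1.07 and 1.06. In the authors' deposited tables (Cuffdiff, q under 0.05), 0 of the 19 were called in either direction in the crown at day 9, beside 6.37% of genes listed, and 0 of the 19 at day 6, beside 2.08%. At an unadjusted p under 0.05 the counts were also 0. In the stem, drought tables listed 5 members at day 9 and 3 at day 6, and every listed row has its higher group at or above 1.97 FPKM. Of these, 0 of 5 were called at day 9, beside 3.63%, and 0 of 3 at day 6, beside 1.44%, and the counts at an unadjusted p under 0.05 were 0 too. The other members have no row in these stem tables, so no test of their drought response in the stem is given here. Sevir.2G185800 has no row at day 6 although its drought day 6 stem held 2.02 FPKM. A level of 1.97 FPKM alone thus did not secure a row. A q-value above the threshold does not show that a member stayed at 1 level.

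Sevir.3G365000 came closest to the upper end of the drought window. Its ratio of drought to watered on FPKM + 1 was 1.36 in the day 9 crown, where the authors' deposited table gave a log2 fold change of 0.47 (q = 0.344). At the other end Sevir.3G112800 had 3.41 FPKM in the drought crown and 5.25 FPKM in the watered crown at day 6, a ratio of 0.705 on FPKM + 1. Just outside stood Sevir.5G372400, at 1.43 in the day 9 stem, and Sevir.8G133800, also at 1.43 but in the day 9 crown. Around the crown/stem limit, the members with the lowest ratios were Sevir.1G341600 at 3.04, Sevir.5G473800 at 3.10 and Sevir.4G277900 at 3.31. The genes just outside that met every other condition were Sevir.3G324500 at 2.96, Sevir.5G406400 at 2.94 and Sevir.2G313300 at 2.86. The genes nearest to the limit on its 2 sides differed by less than 0.1 in this ratio.

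Age was bounded by the rule in watered plants, but not directly under drought, where the other windows together allow a day 9/day 6 ratio from 0.3 to 3.4. In the watered stem the bound again rests on the 1 added where values are low. The ratio there was 2.95 without it and 1.24 with it for Sevir.2G171000, but 1.51 and 1.44 for Sevir.4G277900. In drought crowns 5 of the 19 had a ratio on FPKM + 1 at or above 1.7, beside 11.6% of all genes and 57.9% of the 178 crown-enriched genes. These were Sevir.3G033600 at 2.23, Sevir.4G277900 at 1.91, Sevir.9G075700 at 1.81, Sevir.5G473800 at 1.75 and Sevir.6G185100 at 1.75. In watered crowns the same genes had ratios of 1.64, 1.55, 1.36, 1.31 and 1.54 in that order. Over the 19, the median log2 ratio of day 9 over day 6 was 0.49 in drought crowns and 0.24 in watered crowns, against 0.86 and 0.59 over the crown-enriched genes and 0.05 and 0.03 over all genes. Crown FPKM was higher at day 9 in 14 of the 19 under drought and in 17 of the 19 in watered plants, beside 91.0% and 83.1% of the crown-enriched genes and 54.7% and 52.9% of all genes. In 14 of the 19 the ratio was larger under drought than in watered plants, beside 70.2% of the crown-enriched genes and 51.6% of all genes. That last difference is an interaction of age with drought in the crown, which was not tested because group values carry no spread.

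In the authors' deposited tables, 2 of the 19 were called higher at day 9 in drought crowns, beside 7.97% of genes listed. They were Sevir.3G033600, with a log2 fold change of 1.26 (q = 0.00298), and Sevir.4G277900, with a log2 fold change of 0.96 (q = 0.0096), both from the authors' deposited table. At an unadjusted p under 0.05 there were 6. In watered crowns the authors' deposited table (Cuffdiff) called 0 of the 19 in either direction, beside 10.6%, and 3 had an unadjusted p under 0.05. Stem age tables listed 5 members under drought and 4 in watered plants. The authors' deposited tables called 0 of the 5, beside 11.4%, and 0 of the 4, beside 11.2%, with 0 at an unadjusted p under 0.05 in both. The rule bounds the age ratio of watered crowns and watered stems, so few calls there are largely built in and nothing is read from them.

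**Figure D4:**
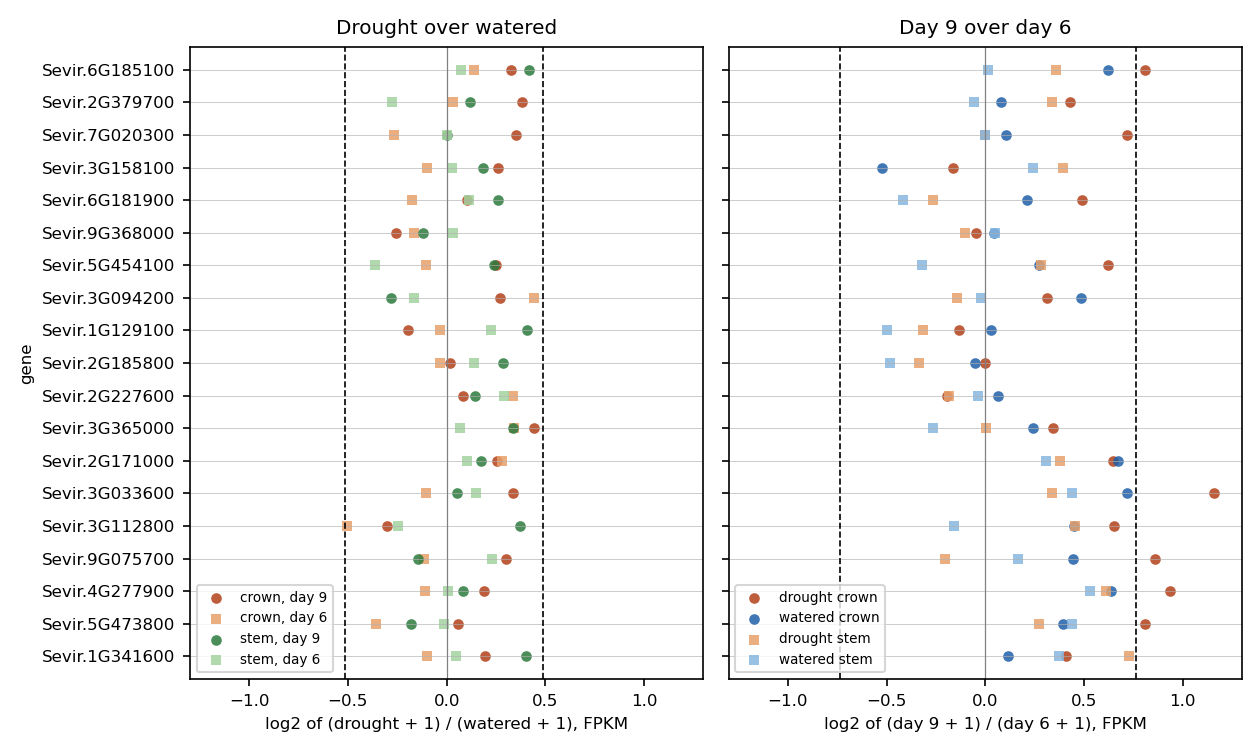
Log2 ratios on FPKM + 1 for the 19 genes (rows): drought over watered at left and day 9 over day 6 at right, with circles and squares for the groups named in the legends. Dashed lines are the limits of the rule (0.7 and 1.4 at left, 0.6 and 1.7 at right). In the right panel 5 drought crown circles, which the rule did not bound directly, lie at or beyond the upper limit, up to 1.16 on the log2 scale.

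The members were spread over the genome. Chromosome 3 held 5 of them, chromosome 2 held 4, chromosomes 1, 5, 6 and 9 held 2 each, chromosomes 4 and 7 held 1 each, and chromosome 8 held 0. The closest members were Sevir.6G181900 and Sevir.6G185100, which lie 359 kb apart on chromosome 6, and 0 of the 19 had another member as the next listed gene. The median gene model of the 19 spanned 2394 bases, against 1786 for the 178 crown-enriched genes and 3592 for all genes.

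Crown-enriched genes that the stability windows left out did adjoin 2 members. Of the 38 listed genes next to a member, 3 were among the 178 crown-enriched genes (7.89%), beside 0.853% of all genes. Of the 178 crown-enriched genes, 21 (11.8%) lay next to another one, 2 members among them. These runs were chosen after their values were seen. Sevir.7G020300 was the middle gene of 5 adjacent listed genes on chromosome 7, between 7086125 and 7181091, that were all crown-enriched, and no other run of crown-enriched genes was as long. In its 4 companions, Sevir.7G020100, Sevir.7G020200, Sevir.7G020400 and Sevir.7G020500, crown/stem ratios on FPKM + 1 ranged from 11.2 to 44.9, and stem values from 0 to 0.708 FPKM. Sevir.7G020300 was the lowest of the 5 in every crown group. In drought crowns at day 9 the companions stood at 43.9, 18.1, 29.9 and 37.7 FPKM, against 27.4, 13.3, 13.1 and 17.3 FPKM in watered crowns at day 9. Their drought/watered ratios there were 1.58, 1.34, 2.19 and 2.12, beside 1.27 for Sevir.7G020300. With no sequence at hand, it cannot be told how alike these genes are or whether reads could map to several of them.

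Sevir.6G185100 opened a run of 3 on chromosome 6. The next listed genes were Sevir.6G185200 (29656409 to 29658137) and Sevir.6G185400 (29679967 to 29681698), with crown/stem ratios on FPKM + 1 of 9.90 to 21.8 and of 12.8 to 40.5. In the day 9 crown the 3 genes stood at 16.9, 34.0 and 63.6 FPKM under drought, against 13.3, 15.9 and 21.5 FPKM in watered plants. The drought/watered ratios on FPKM + 1 were 1.25, 2.08 and 2.87, larger for each gene farther along the run. In the day 6 crown they were 1.10, 1.43 and 1.47. The drought limit of 1.4 alone sets Sevir.6G185100 below both of its neighbours in the day 9 drought ratio, so that order is a description.

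Which genes met the rule depended on the value added to FPKM before the ratios were taken. With 0.1 added, 8 genes met the rule and 6 of them were among the 19. With 5 added, 6 genes met it and 0 of them were among the 19. The set is therefore a set of genes at this level of expression under this offset, and of the 19 none is in it under all 3 offsets.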

How the data were processed

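RNA sequencing of 24 libraries was analysed from 28 deposited tables, 1 for every pair of the 8 groups. Strand-specific libraries were made from RNA after removal of ribosomal RNA, per the labels' protocols. FastQC, cutadapt and Cuffdiff are named in the submitters' processing notes, and the aligner, the build and all versions are not given in the sources read. Per the file headers, each table holds the authors' FPKM value of both groups, the authors' log2 fold change, a test statistic score, and the authors' p-value and q-value. A group had 1 FPKM value in all its tables (0 differences), and the deposited q-values matched a Benjamini-Hochberg adjustment over the 28 tables jointly within 5.3e-07, so false calls are limited over all tables and not within each. Replicates are biological repeats per the labels.

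The membership rule, ratios, counts and positions were computed with Python 3.11.15, pandas 2.3.3 and numpy 2.4.6, and the rule was tested on simulated data. Members and lists were chosen with earlier results of these data known. Genes were named as the members with the highest smallest crown/stem ratio or crown level, those nearest the limits, those with an age or drought call, and those listed at 0 in a stem, and the other members are named to account for all 19. Planned lists by gene name and promoter motifs were not run, because no identifier matched a name.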

Additional observations from a re-analysis of the deposited data

How the results depend on the processing

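Library values were not analysed here, so leaving out replicates could not be run. No paired analysis was possible because the tables hold 1 value per group and no replicate columns. The count of 19 members moved with most shifts of the limits of the rule. With a crown/stem limit of 2, 54 genes met it, and 7 with a limit of 4. A drought window of 0.5 to 2 gave 49 genes and one of 0.8 to 1.2 gave 4. There were 3 with a minimum of 20 FPKM, and 37 with no age condition. With 0.1 FPKM added to each value 8 genes met it, and with 5 added 6 did. It stayed within 1.5 times the reported count with group values scaled to the median gene (21 genes, 18 of the 19 among them), with the age window also asked of the drought groups (14), with no minimum FPKM (19) and with a call by the authors in all 4 pairs (15). With 0.1 FPKM added, the median log2 crown/stem ratio was 3.28 under drought at day 9, 3.00 under drought at day 6, 3.42 in watered plants at day 9 and 3.02 in watered plants at day 6, and median scaling moved each by less than 0.1. The 12 counts of called members stayed within 1.5 times under a q limit of 0.01 and under adjustment within each table. A stricter q limit cannot change a count of 0, which all drought counts and most age counts were. Depth is unknown, and stem values under 1 FPKM limit how well the ratios of the low-stem genes are known.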

Other observations

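The same rule turned round, with stem over crown, found 4 genes against the 19 of the crown. Sevir.3G199700 was the most abundant, with 43.1 and 71.9 FPKM in drought crowns at day 9 and day 6, 58.1 and 93.8 FPKM in watered crowns at day 9 and day 6, and 139 to 301 FPKM over the stems. Sevir.4G012700 and Sevir.9G524600 shared its order of values, with day 9 below day 6 in each region and water regime, while most of the 19 crown genes were higher at day 9 in the crown. Sevir.9G230800 stood at 0.355 to 0.948 FPKM over the crowns and 3.79 to 5.92 FPKM over the stems. Whether the 2 sets differ in number for a reason other than the limits of the rule was not tested.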
